A study of Mus musculus with 12 samples.

Results

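Transcripts of 10 genes for the engulfment of dying cells were followed in cultured mouse astrocytes kept on brain sections: the receptors Mertk, Axl and Tyro3 (the TAM family), their ligands Gas6 and Pros1, the bridging protein Mfge8, the engulfment receptor Megf10, the adaptor Gulp1, and the Elmo1 and Dock1 pair. The genes were chosen by name, and each was taken with every array probe set assigned to it and to no other gene. This gave 18 probe sets of 45037 tested, and 10 of 18193 genes. The 12 Affymetrix arrays held 3 arrays for each of 4 groups: adult cells on APdE9 sections, adult cells on wild-type sections, neonatal cells on APdE9 sections and neonatal cells on wild-type sections. All cells were C57Bl/6j astrocytes from hippocampus and cortex that carried eGFP and stayed on the section for 22 h. Adult donors were 6 to 8 weeks old. Neonatal donors were 3 d old in the sample labels and 2 days old in the protocol text. APdE9 mice carry chimeric mouse and human APPSwe together with PS1-dE9, each under a mouse prion protein promoter, and the wild-type sections came from their littermates. The astrocytes were not taken from APdE9 mice. The labels call the 3 arrays of a group biological replicates and state that samples were pooled (n = 3) before RNA isolation. The p-values thus cover the variation among pools and no more, and some of that variation may be technical. Percoll was used to isolate the adult cells but not the neonatal ones, and the culture media differed too (DMEM/F12 plus G5 supplement for adult cells, plain DMEM for neonatal cells), so isolation and medium cannot be told apart from age. The fluorescent cells were loosened with trypsin and picked by suction.

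Dying cells display phosphatidylserine, a lipid that healthy cells keep on the inner face of the membrane. Gas6 and protein S (Pros1) bind this lipid with a domain that vitamin K dependent carboxylation makes active, and join it to the TAM receptor kinases, while Mfge8 joins it to integrins. Megf10 is an engulfment receptor of astrocytes that signals through adaptors such as Gulp1, and Elmo1 with Dock1 activates the GTPase Rac, which drives the membrane around the target. Astrocytes use Mertk and Megf10 to take up synapses in the developing brain.

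Values were read as log2 signals, each less its probe set's median across the 12 arrays. The centring was seen in the values, while the log base and the sign are not stated in the labels. The sign was taken as deposited, and every direction below rests on it. A value of 0 thus means the middle of the 12 arrays, differences between groups are kept, and the level of a gene, or whether it was above background, cannot be read. A gene's value is the mean of its probe sets. A difference was called at an adjusted p under 0.05 from limma (Benjamini-Hochberg over 18193 genes), and differences are given as log2 ± SE with 3 arrays a group.

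On APdE9 against wild-type sections, adult cells had more Megf10 RNA (log2 difference 1.46 ± 0.12, or 2.75-fold) and less Axl, Mfge8, Pros1 and Gulp1 RNA (-0.61 to -0.35). That is 1 of 10 genes higher and 4 lower, in a comparison that called 8.26% of all genes higher and 9.4% lower. In neonatal cells Megf10 was higher by 0.66 ± 0.12, and Mfge8 and Tyro3 were lower, so 1 of 10 genes was called higher and 2 lower, against 1.21% and 2.55% of all genes. The section effect itself differed between the ages for Megf10 and Axl, 1 of 10 genes higher and 1 lower, where 5.19% of all genes were called higher and 4.88% lower. The median difference of the 10 genes was 0.041 in adult cells and -0.13 in neonatal cells, against 0.049 and 0.0018 over all genes.

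**Figure D1:**
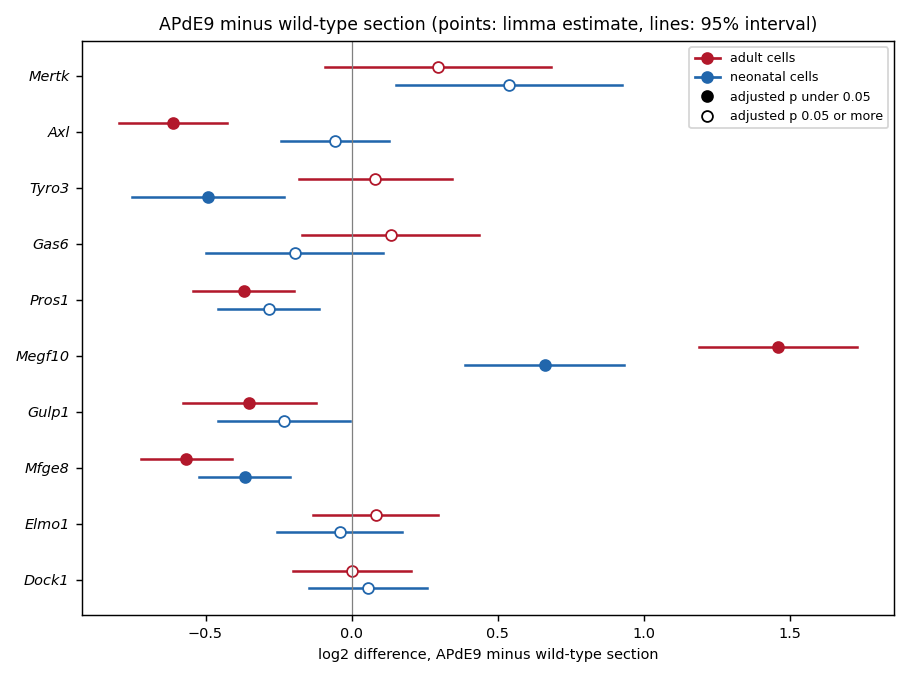
The horizontal axis gives the log2 difference of APdE9 minus wild-type sections for each of the 10 genes, with adult cells above neonatal cells, points for the limma estimate and lines for its 95% interval. Filled points passed an adjusted p of 0.05. Megf10 lies farthest to the right at both ages (1.46 in adult and 0.66 in neonatal cells), and Mfge8 lies left of 0 at both (-0.57 and -0.37).

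The 4 genes that were lower in adult cells on APdE9 sections have the following start regions, shown because they changed in the same direction. Each is 250 bases before to 50 after a transcript start in RefSeq (build GRCm38.p6). For Axl and Gulp1 this start lies inside the gene's full annotated span and not at its edge. Sequences are written 5′ to 3′ on the gene's strand. Capitals mark matches on either strand to any of 5 motifs, and overlapping matches run together. These were the GC box, spelled GGGCGG and bound by Sp1, and the TATA box, spelled TATAAA. The AP-1 element was searched as TGANTCA. The core of the interferon-stimulated response element was searched as GAAANNGAA, and the gamma-activated site, which STAT factors bind, as TTCNNNGAA. Axl lies at chr7:25788684-25788983 on the minus strand, Pros1 at chr16:62854057-62854356 on the plus strand, Gulp1 at chr1:44551421-44551720 on the plus strand and Mfge8 at chr7:79149011-79149310 on the minus strand.
Axl: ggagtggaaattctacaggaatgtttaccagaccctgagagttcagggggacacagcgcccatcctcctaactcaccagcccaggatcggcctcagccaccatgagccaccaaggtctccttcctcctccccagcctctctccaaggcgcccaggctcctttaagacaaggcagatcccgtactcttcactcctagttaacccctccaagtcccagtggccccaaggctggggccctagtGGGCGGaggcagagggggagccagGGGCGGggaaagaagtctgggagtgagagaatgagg
Pros1: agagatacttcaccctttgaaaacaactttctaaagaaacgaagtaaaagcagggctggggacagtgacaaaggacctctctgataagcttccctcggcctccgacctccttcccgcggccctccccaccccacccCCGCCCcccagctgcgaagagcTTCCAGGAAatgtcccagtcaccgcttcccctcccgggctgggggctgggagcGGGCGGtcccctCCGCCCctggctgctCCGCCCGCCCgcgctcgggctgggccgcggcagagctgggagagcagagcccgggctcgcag
Gulp1: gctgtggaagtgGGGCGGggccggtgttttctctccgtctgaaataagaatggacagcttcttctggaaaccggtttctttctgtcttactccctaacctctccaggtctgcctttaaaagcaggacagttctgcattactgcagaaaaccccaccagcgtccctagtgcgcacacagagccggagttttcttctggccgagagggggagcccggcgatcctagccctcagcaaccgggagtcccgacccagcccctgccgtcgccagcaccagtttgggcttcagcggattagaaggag
Mfge8: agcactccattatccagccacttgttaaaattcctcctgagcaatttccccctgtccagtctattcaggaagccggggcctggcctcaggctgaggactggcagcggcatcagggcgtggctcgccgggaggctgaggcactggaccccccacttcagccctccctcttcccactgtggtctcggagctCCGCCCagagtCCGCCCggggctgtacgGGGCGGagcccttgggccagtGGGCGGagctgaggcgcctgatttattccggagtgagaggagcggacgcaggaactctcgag
Windows of 9 of the 10 genes were counted, with 2 windows for Elmo1 and none for Megf10. The shares of the 10 genes' windows thus leave Megf10 out, and its start region was not tested for these motifs. GC boxes stood in 9 of these 10 windows and in 35.7% of all 32851 mouse windows of this length, the gamma-activated site in 2 and 8.30%, the TATA box in 1 and 13.6%, the interferon element core in 1 and 8.56%, and the AP-1 element in 0 and 7.81%. Among the 4 windows shown, the gamma-activated site was found in that of Pros1. A match is a stretch of letters and not a measured binding site.

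Mertk, the TAM receptor best known for clearing dying cells, differed chiefly by age. Its single probe set stood at -0.45, -0.66 and -1.21 in adult cells on APdE9 sections, against -0.91, -1.08 and -1.22 in adult cells on wild-type sections. Neonatal cells had 1.06, 1.32 and 0.85 on APdE9 sections and 0.69, 0.45 and 0.47 on wild-type sections. Every neonatal array was thus above every adult array. Adult minus neonatal cells gave -1.85 ± 0.18 on APdE9 sections (adjusted p = 6.92e-06) and -1.61 ± 0.18 on wild-type sections (adjusted p = 1.76e-05). By section, the neonatal arrays did not overlap either, with a difference of 0.54 ± 0.18 that was not called (adjusted p = 0.142). With the replicate number as a block over all arrays, the adjusted p was 0.0303. The replicate numbers acted as pairs between the sections in neonatal cells, but not in every comparison that the block covers. Replicate 2 fell short between the sections in adult cells (correlation -0.147) and between the ages on wild-type sections (0.0247). The block thus rests in part on pairs that the arrays did not bear out. In adult cells the section groups overlapped, and the difference was 0.30 ± 0.18 (adjusted p = 0.289). Without the third adult array on APdE9 sections the difference was 0.51 in adult cells and was called (adjusted p = 0.0353). In neonatal cells it stayed at 0.54, with an adjusted p of 0.0492. The omitted array enters the neonatal comparison only through the estimate of spread that the 4 groups share. With array weights and all arrays kept, the neonatal difference was 0.59 and was called (adjusted p = 0.0179).

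Microglia also express Mertk, and markers of microglia and macrophages moved with age and section. The mean over 23 such markers ran from -1.50 to -1.41 in adult cells on APdE9 sections and from -2.06 to -1.82 in adult cells on wild-type sections. In neonatal cells it ran from 1.85 to 2.00 on APdE9 sections and from 1.28 to 1.78 on wild-type sections. Of the 23 markers, 21 were lower in adult than in neonatal cells on each section, and 1 was higher on wild-type sections. Of all genes 11.9% were lower and 11.7% higher by age on APdE9 sections, and 15.2% and 14.9% on wild-type sections. By section 7 of the markers were higher and 2 lower in adult cells, and 5 higher and 0 lower in neonatal cells. The shares of all genes were 8.26% higher and 9.4% lower in adult cells, and 1.21% and 2.55% in neonatal cells. The protocol reports microglia below 0.4% of the cultured cells, before they met the section. With levels removed, which markers were at background cannot be said, and the part of these cells in the Mertk differences was not tested. In such bulk samples fewer cells of a type and less RNA per cell cannot be told apart.

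Axl, the TAM receptor that Gas6 binds most tightly, responded to the section in adult cells. Adult cells had -0.34, -0.34 and -0.13 on APdE9 sections, against 0.30, 0.40 and 0.31 on wild-type sections, while all 6 neonatal arrays lay between -0.092 and 0.12. The adult groups were apart and the neonatal groups overlapped. The APdE9 minus wild-type difference was -0.61 ± 0.08 in adult cells (adjusted p = 0.000344) and -0.057 ± 0.085 in neonatal cells (adjusted p = 0.889, 95% interval -0.24 to 0.13). The adult effect minus the neonatal one was -0.55 ± 0.12 (adjusted p = 0.0124). Its 2 probe sets disagreed. Probe set 1423586_at gave -0.45, -0.72 and -0.24 in adult cells on APdE9 sections, against 0.60, 0.64 and 0.63 on wild-type sections, a difference of -1.09 ± 0.12. Probe set 1438621_x_at, whose suffix marks probes that can match other transcripts, gave -0.13 ± 0.10. By age Axl was lower in adult cells on APdE9 sections (-0.27 ± 0.08, adjusted p = 0.0377) and higher in them on wild-type sections (0.28 ± 0.08, adjusted p = 0.0226). Both age calls were lost without single arrays, with an adjusted p up to 0.128 on APdE9 sections (without adult arrays 1 or 2 or neonatal arrays 2 or 3 on APdE9 sections, or adult array 3 on wild-type sections) and up to 0.0963 on wild-type sections (without adult array 2 or neonatal array 2).

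Tyro3, the TAM receptor most tied to neurons, was lower in neonatal cells on APdE9 sections. These had -0.31, 0.15 and -0.23, against 0.37, 0.28 and 0.44 in neonatal cells on wild-type sections. Adult cells had 0.064, 0.0061 and -0.080 on APdE9 sections, against 0.086, -0.19 and -0.15 on wild-type sections. The neonatal groups were apart by a small gap between the second APdE9 array and the wild-type arrays, and the adult groups overlapped. The difference was -0.49 ± 0.12 in neonatal cells (adjusted p = 0.0425) and 0.08 ± 0.12 in adult cells (adjusted p = 0.699). The difference between these effects was 0.57 ± 0.17 and missed the threshold (adjusted p = 0.0531). Probe set 1425248_a_at carried most of it, with -0.14, 0.16 and -0.19 in neonatal cells on APdE9 sections, against 0.55, 0.52 and 0.77 on wild-type sections. Its difference of effects was 0.83 ± 0.17 (adjusted p = 0.011 over all probe sets), against 0.31 ± 0.21 for probe set 1425249_a_at. The neonatal call was kept in 11 of 23 alternatives. Leaving out any 1 neonatal array other than the second on APdE9 sections ended it, as did leaving out any adult array except the first on wild-type sections, with an adjusted p up to 0.153. Without adult array 1 on wild-type sections or neonatal array 2 on APdE9 sections, the difference of effects passed (adjusted p = 0.0391 and 0.00922). By age, Tyro3 was lower in adult cells on wild-type sections (-0.45 ± 0.12, adjusted p = 0.013, or 0.058 without the second adult array), and differed by 0.13 ± 0.12 on APdE9 sections (adjusted p = 0.507).

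**Figure D2:**
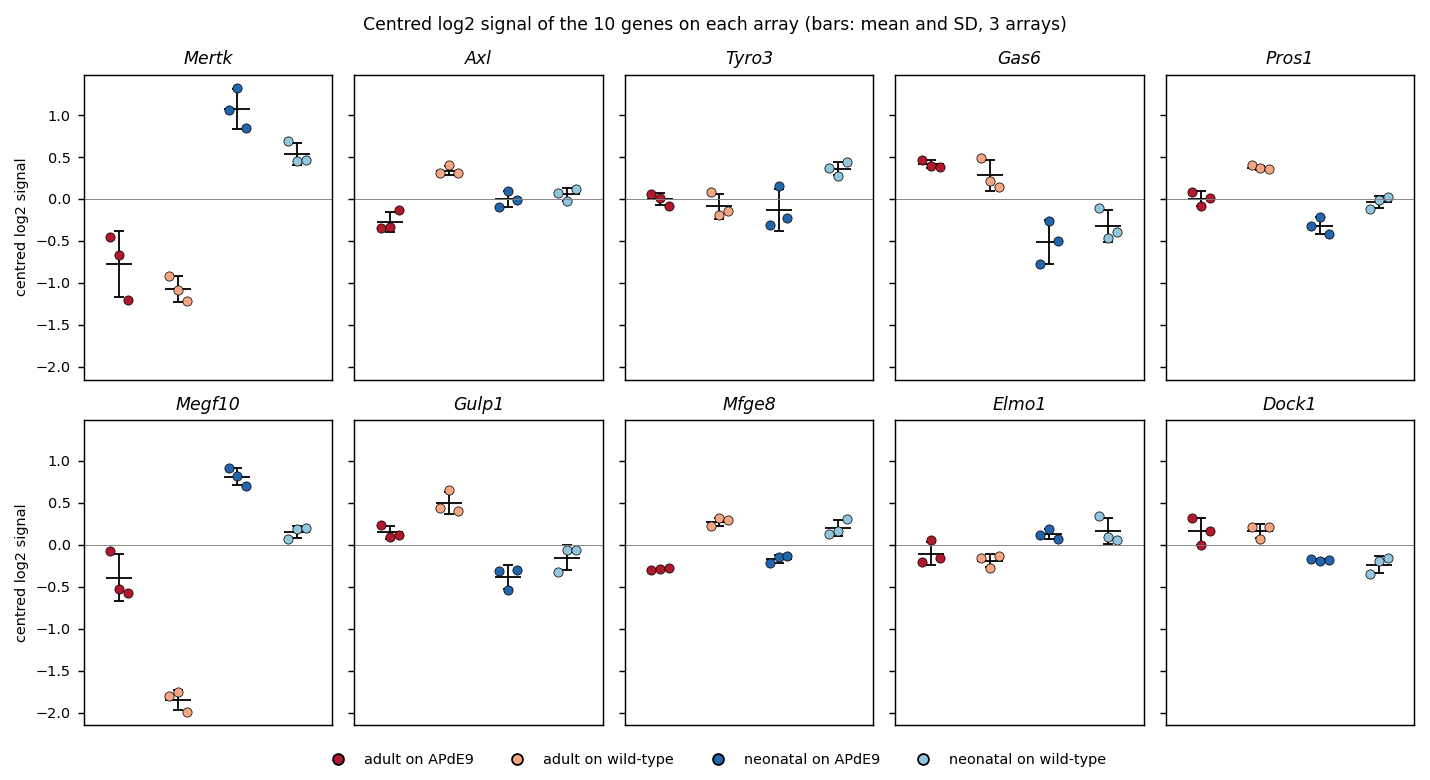
Each panel plots the centred log2 signal of 1 gene on the 12 arrays, grouped by colour, with bars for the mean and SD of 3 arrays. All 6 neonatal points of Mertk and Megf10 lie above all 6 adult points, and the 3 adult points of Megf10 on wild-type sections, between -1.99 and -1.75, lie below those of every other group.

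Of the ligands, Gas6, which binds all 3 TAM receptors, was higher in adult than in neonatal cells on both sections. Adult cells had 0.47, 0.39 and 0.38 on APdE9 sections and 0.49, 0.21 and 0.14 on wild-type sections. Neonatal cells had -0.78, -0.27 and -0.50 on APdE9 sections and -0.10, -0.46 and -0.39 on wild-type sections. The ages did not overlap, and the sections overlapped at each age. Adult minus neonatal cells gave 0.93 ± 0.14 on APdE9 sections (adjusted p = 0.000312) and 0.60 ± 0.14 on wild-type sections (adjusted p = 0.00539). Probe set 1417399_at carried this, with age differences of 1.69 and 0.96, while 1459585_at gave 0.16 and 0.23 and was not called. By section Gas6 differed by 0.13 ± 0.14 in adult cells (adjusted p = 0.566) and by -0.20 ± 0.14 in neonatal cells (adjusted p = 0.623).

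Pros1, which encodes protein S, the ligand of Mertk and Tyro3, moved with both section and age. Adult cells had 0.088, -0.089 and 0.011 on APdE9 sections, against 0.40, 0.36 and 0.35 on wild-type sections. Neonatal cells had -0.32, -0.22 and -0.42 on APdE9 sections, against -0.12, -0.011 and 0.023 on wild-type sections. The groups were apart by section at each age. The section difference was called in adult cells (-0.37 ± 0.08, adjusted p = 0.00642) and not in neonatal cells (-0.28 ± 0.08, adjusted p = 0.0788). The effects differed by -0.086 ± 0.113 (adjusted p = 0.721, 95% interval -0.33 to 0.16). By age Pros1 was higher in adult cells by 0.32 ± 0.08 on APdE9 sections (adjusted p = 0.01) and by 0.41 ± 0.08 on wild-type sections (adjusted p = 0.00168).

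Mfge8, a secreted bridge from phosphatidylserine to integrins, was lower on APdE9 sections at both ages. Adult cells had -0.30, -0.29 and -0.28 on APdE9 sections, against 0.22, 0.31 and 0.29 on wild-type sections. Neonatal cells had -0.22, -0.15 and -0.13 on APdE9 sections, against 0.13, 0.17 and 0.30 on wild-type sections. All 6 APdE9 arrays were below all 6 wild-type arrays. The difference was -0.57 ± 0.07 in adult cells (adjusted p = 0.000161) and -0.37 ± 0.07 in neonatal cells (adjusted p = 0.0146). The neonatal call was lost without array 1 on APdE9 sections or arrays 2 or 3 on wild-type sections (adjusted p 0.0544 to 0.0564). Neither the difference of the effects (-0.20 ± 0.10, adjusted p = 0.266) nor the age differences (-0.12 ± 0.07 on APdE9 and 0.076 ± 0.071 on wild-type sections) passed.

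Mfge8 and Pros1 are also made by cells of vessel walls and by fibroblasts. The mean over 14 mural and fibroblast markers ran from -0.041 to 0.19 in adult cells on APdE9 sections and from 0.58 to 0.75 in adult cells on wild-type sections, with 1 marker higher and 5 lower. In neonatal cells it ran from -0.31 to -0.19 on APdE9 sections and from -0.44 to -0.13 on wild-type sections, with 3 higher and 1 lower. Of 16 astrocyte markers, 6 were higher and 3 lower on APdE9 sections in adult cells, and 0 higher and 7 lower in neonatal cells. Of all genes 8.26% were higher and 9.4% lower in adult cells, and 1.21% and 2.55% in neonatal cells. The mean of the astrocyte markers ran from -0.63 to -0.58 in adult cells on APdE9 sections and from -0.68 to -0.66 in adult cells on wild-type sections. In neonatal cells it ran from 0.45 to 0.56 on APdE9 sections and from 0.88 to 0.95 on wild-type sections. By age 11 of the 16 were lower and 1 higher in adult cells on APdE9 sections, and 13 lower and 2 higher on wild-type sections, where all genes gave 11.9% lower and 11.7% higher, and 15.2% lower and 14.9% higher. Aldoc (-3.59 on APdE9 and -4.97 on wild-type sections), Gfap (-3.45 and -4.24) and Aqp4 (-2.40 and -3.73) were lower in adult cells, as were Mertk and Megf10. Other astrocyte markers went the other way, with S100b higher on both sections (0.95 and 0.58) and Gja1 higher on wild-type sections (0.35). Aldh1l1 was lower on wild-type sections (-0.53) and not called on APdE9 sections (0.068). The part of these marker differences in the Mertk and Megf10 age differences was not tested. Without levels these markers cannot show whether the cells match the label astrocyte, which rests on the protocol's GFAP staining (99.6% of cells). The part of these cell types in the lower Axl, Pros1, Gulp1 and Mfge8 signals was not tested.

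Megf10 had the widest range of the 10 genes, with group means 2.66 log2 units apart. Adult cells had -0.072, -0.53 and -0.57 on APdE9 sections, against -1.81, -1.75 and -1.99 on wild-type sections. Neonatal cells had 0.91, 0.82 and 0.71 on APdE9 sections, against 0.072, 0.19 and 0.20 on wild-type sections. The 4 groups did not overlap, and adult cells on wild-type sections were lowest. The section difference was 1.46 ± 0.12 in adult cells (adjusted p = 7.94e-06) and 0.66 ± 0.12 in neonatal cells (adjusted p = 0.0122). The adult effect exceeded the neonatal one by 0.80 ± 0.18 (adjusted p = 0.0136). By age Megf10 was lower in adult cells on APdE9 sections (-1.20 ± 0.12, adjusted p = 1.35e-05) and on wild-type sections (-2.0 ± 0.12, adjusted p = 1.01e-07). After quantile normalization the difference of effects was 0.39 and no longer called (adjusted p = 0.141). The neonatal section call was lost without array 1 on APdE9 sections (adjusted p = 0.0539) or array 2 on wild-type sections (adjusted p = 0.0516). By section 8.26% of all genes were higher and 9.4% lower in adult cells, and 1.21% and 2.55% in neonatal cells. Markers of oligodendrocytes and their progenitors moved beside Megf10 in adult cells, where 6 of 13 were higher and 0 lower on APdE9 sections. Their mean ran from 0.054 to 0.18 in adult cells on APdE9 sections and from -0.48 to -0.43 in adult cells on wild-type sections, with Mbp (1.78 ± 0.20), Olig2 (1.53 ± 0.23) and Olig1 (1.30 ± 0.09) higher. In neonatal cells 2 were higher, among them Mbp (1.80 ± 0.20), and 2 lower. The median difference of the 13 markers there was -0.032, against 0.0018 over all genes. Their mean ran from 0.24 to 0.26 on APdE9 sections and from 0.023 to 0.12 on wild-type sections in neonatal cells. The part of these cells in the Megf10 differences was not tested.

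Gulp1, the adaptor that binds engulfment receptors such as Megf10 inside the cell, was lower on APdE9 sections in adult cells while Megf10 was higher. Adult cells had 0.23, 0.095 and 0.12 on APdE9 sections, against 0.44, 0.65 and 0.40 on wild-type sections. Neonatal cells had -0.31, -0.54 and -0.30 on APdE9 sections and -0.32, -0.064 and -0.067 on wild-type sections. The adult groups were apart by section and the neonatal groups overlapped. The difference was -0.35 ± 0.10 in adult cells (adjusted p = 0.0361) and -0.23 ± 0.10 in neonatal cells (adjusted p = 0.322). Of its 3 probe sets, 1453771_at gave -0.66 ± 0.12 in adult cells (adjusted p = 0.00332 over all probe sets) and 1432092_a_at gave 0.0062 ± 0.11. The adult call was lost under quantile normalization (adjusted p = 0.0881) and without arrays 2 or 3 on APdE9 sections or arrays 1 or 2 on wild-type sections (0.0599 to 0.153). By age Gulp1 was higher in adult cells by 0.53 ± 0.10 on APdE9 sections (adjusted p = 0.00236) and by 0.65 ± 0.10 on wild-type sections (adjusted p = 0.000402).

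Elmo1 and Dock1, which together activate Rac, did not pass by section at either age. Elmo1 ranged from -0.27 to 0.35 over the 12 arrays and Dock1 from -0.35 to 0.32. The largest section difference of either gene mean was 0.081 ± 0.098 for Elmo1 in adult cells (95% interval -0.13 to 0.29), and the interval of Dock1 in adult cells was -0.20 to 0.20. By age Dock1 was higher in adult cells by 0.34 ± 0.09 on APdE9 sections (adjusted p = 0.0172) and by 0.40 ± 0.09 on wild-type sections (adjusted p = 0.00553). Without the first adult array on APdE9 sections the adjusted p on these sections was 0.0732. Elmo1 was lower in adult cells on wild-type sections (-0.35 ± 0.10, adjusted p = 0.0153), a call lost without adult array 2 or neonatal array 1 there (adjusted p 0.0664 and 0.0667). On APdE9 sections the difference was -0.23 ± 0.10 (adjusted p = 0.117). The Elmo1 probe sets disagreed: 1424523_at gave age differences of -0.69 and -0.67 on APdE9 and wild-type sections, and neither 1446610_at nor 1450208_a_at was called. Those of Dock1 disagreed too. By section, 1443991_at gave -0.18 ± 0.12 in adult and 0.22 ± 0.12 in neonatal cells, and 1452220_at gave 0.18 ± 0.09 and -0.10 ± 0.09, none of them called, so their mean lies near 0. On APdE9 sections the age difference was 0.062 ± 0.120 for 1443991_at and 0.62 ± 0.09 for 1452220_at (adjusted p = 0.000528 over all probe sets).

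**Figure D3:**
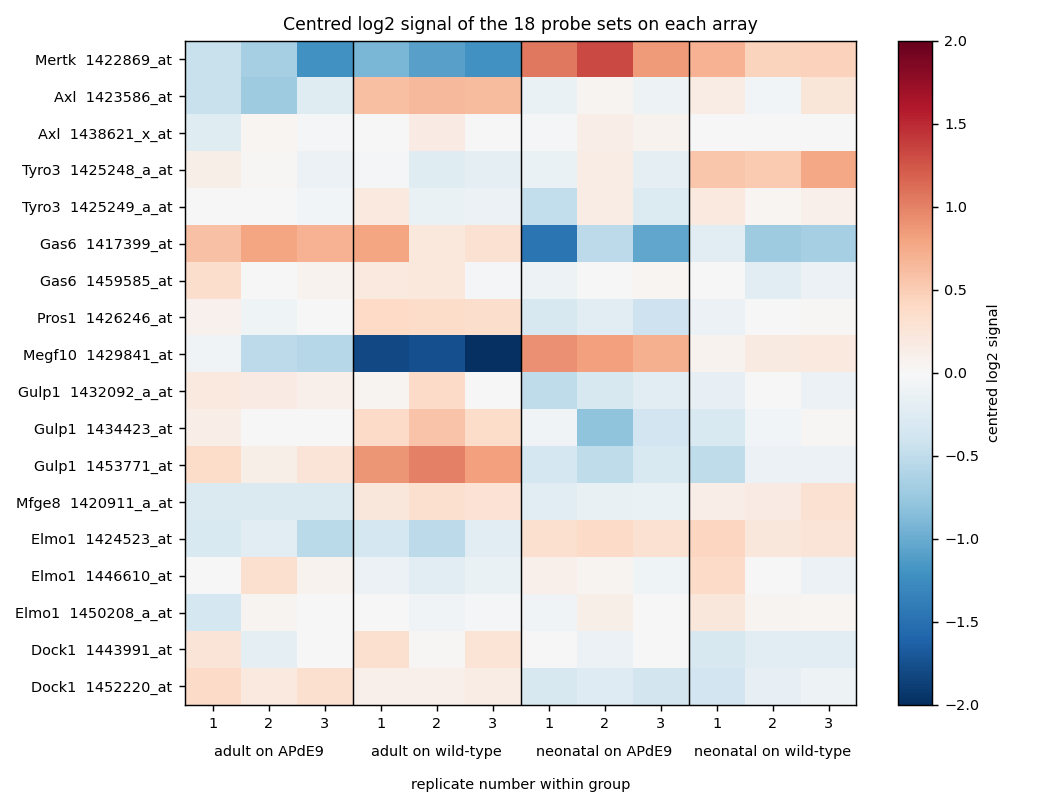
The colour of each cell gives the centred log2 signal of 1 of the 18 probe sets (down) on 1 of the 12 arrays (across), on a scale of -2 to 2. For Axl, Tyro3, Gas6 and Elmo1 a single probe set carries the called differences. For Gas6 this is 1417399_at, at 0.59 to 0.79 in adult cells on APdE9 sections. A single probe set also carries the section call of Gulp1 in adult cells (1453771_at). The same holds for the age call of Dock1 on APdE9 sections (1452220_at).

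By age more of the 10 genes were called, as were more of all genes. Adult cells had 4 of 10 genes higher and 3 lower on APdE9 sections, where 11.7% of all genes were higher and 11.9% lower. On wild-type sections 5 were higher and 4 lower, where the shares were 14.9% and 15.2%. The medians of the 10 differences were 0.0013 and 0.18, against 0.053 and 0.012 over all genes. Gas6, Pros1, Gulp1 and Dock1 were higher and Mertk and Megf10 lower in adult cells on both sections. Axl was called in opposite directions on the 2 sections. The age and section comparisons use the same 4 groups of arrays and are not independent of each other.

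**Figure D4:**
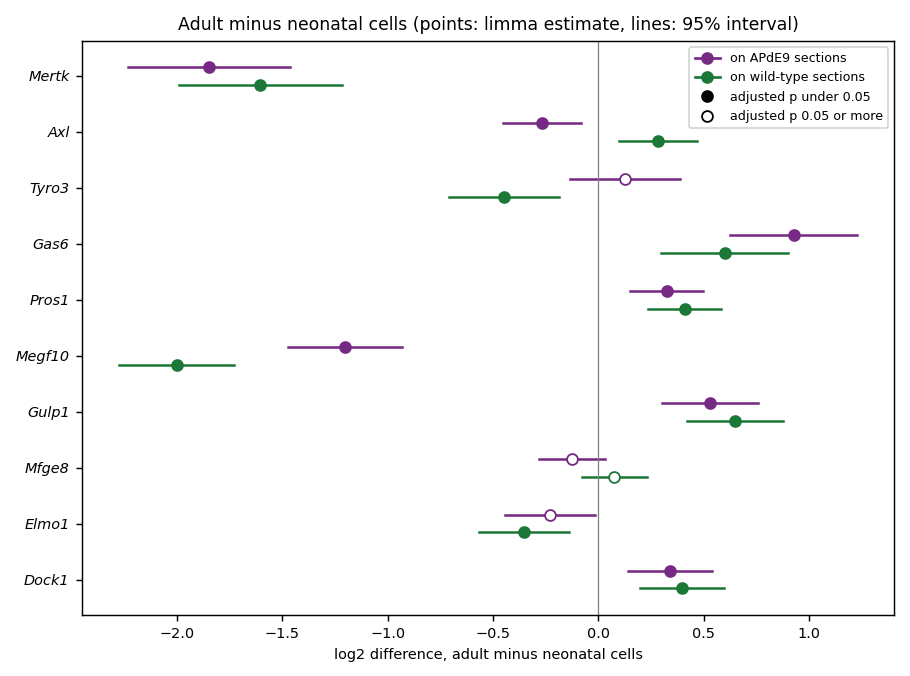
The horizontal axis gives the log2 difference of adult minus neonatal cells for each gene, with APdE9 sections above wild-type sections, points for the limma estimate and lines for its 95% interval. Filled points passed an adjusted p of 0.05. Mertk (-1.85 and -1.61) and Megf10 (-1.20 and -2.0) lie far to the left, and Gas6 lies to the right at 0.93 and 0.60.

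The genes around this pathway were counted in 9 lists made up by function. Each count by section is to be read against all genes, of which 8.26% were higher and 9.4% lower in adult cells and 1.21% higher and 2.55% lower in neonatal cells. Of 24 other receptors for phosphatidylserine and apoptotic cells, 7 were higher and 1 lower on APdE9 sections in adult cells, and 4 higher and 1 lower in neonatal cells, with median differences of 0.073 and 0.099. In adult cells the receptor genes Cd300lb (2.28 ± 0.26), Havcr2 (1.86 ± 0.23) and Cd14 (1.15 ± 0.24) rose, and Itgb5, a chain of the integrin that binds Mfge8, fell (-1.23 ± 0.09). In neonatal cells Cd300lf (1.51 ± 0.23), Havcr2 (0.93 ± 0.23), Msr1 (0.82 ± 0.13) and Cd300a (0.64 ± 0.09) rose. These are mainly receptors of myeloid cells, and they moved beside the microglial markers above. By age 11 of the 24 were lower and 2 higher in adult cells on each section. Of all genes 11.9% were lower and 11.7% higher on APdE9 sections, and 15.2% lower and 14.9% higher on wild-type sections.

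In the bridge and ligand lists the background by section was again 8.26% higher and 9.4% lower in adult cells, and 1.21% and 2.55% in neonatal cells. Of 15 other bridging proteins, 3 were higher and 6 lower on APdE9 sections in adult cells, and 0 higher and 1 lower in neonatal cells. Thbs1 (-2.28 ± 0.47), Ptx3 (-1.72 ± 0.14) and Anxa1 (-1.17 ± 0.24) fell in adult cells and C1qc rose (1.01 ± 0.21). Ptx3, a secreted pentraxin, also fell in neonatal cells (-0.79 ± 0.14). Of 9 other TAM ligands and genes of receptor shedding, Lgals3, whose product galectin-3 is a ligand of Mertk, rose in adult cells (1.28 ± 0.12) and C4bp, whose product binds protein S in humans, fell (-1.11 ± 0.18). In neonatal cells 0 of these 9 passed. Of 7 genes of vitamin K dependent carboxylation, Furin rose (0.30 ± 0.08) and the carboxylase Ggcx fell (-0.35 ± 0.11) in adult cells, and 0 passed in neonatal cells. By age 3 of these 7 were higher in adult cells on APdE9 sections and 4 on wild-type sections, against 11.7% and 14.9% of all genes, among them Nqo1 (2.59 ± 0.13 on APdE9 and 2.40 ± 0.13 on wild-type sections).

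The lists of genes that act inside the cell are read against the same background of 8.26% higher and 9.4% lower in adult cells, and 1.21% and 2.55% in neonatal cells. Of 29 genes of engulfment signalling and Rac activation, 1 was higher and 3 lower in adult cells, and 1 higher and 1 lower in neonatal cells. The Rac exchange factor Vav3 rose at both ages (1.19 ± 0.10 in adult and 0.42 ± 0.10 in neonatal cells), with a difference of effects of 0.77 ± 0.14 (adjusted p = 0.00516), and Elmo3 fell at both (-0.74 ± 0.13 and -0.57 ± 0.13). Of 26 phagosome and lysosome genes, 5 were higher and 1 lower in adult cells, with Lipa (1.00 ± 0.11), Atp6v0d2 (0.84 ± 0.14) and Npc1 (0.52 ± 0.08) higher. In neonatal cells 2 were higher and 1 lower. Of 15 genes of lipid sensing and cholesterol efflux, 3 were higher and 1 lower in adult cells and 1 higher and 2 lower in neonatal cells. Abca1 (0.62 ± 0.13) and Abca7 (0.50 ± 0.11) rose in adult cells, Abcg1 (0.78 ± 0.16) rose in neonatal cells, and Tgm2, which crosslinks proteins, fell at both ages (-1.21 ± 0.12 in adult and -0.47 ± 0.12 in neonatal cells). Of 7 genes of TAM feedback on cytokine signalling, Ifnar2 (-0.46 ± 0.10, adjusted p = 0.00669) fell in adult cells. Socs3 (-0.89 ± 0.28) fell there too, just under the threshold (adjusted p = 0.0498), and 0 passed in neonatal cells. Of 15 genes of phosphatidylserine exposure, 2 were higher and 3 lower in adult cells and 0 passed in neonatal cells.

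For the 4 genes with the widest range of group means, the genes of nearest pattern were those with the smallest root mean square difference over the 12 arrays. Each gene was first centred on its mean over these arrays. For Megf10 the nearest genes were Gbp6, a guanylate-binding protein (0.243), and Oas1a, an oligoadenylate synthetase (0.246). Oas1a averaged -0.17 in adult cells on APdE9 sections, -1.86 in adult cells on wild-type sections, 0.56 in neonatal cells on APdE9 sections and 0.20 in neonatal cells on wild-type sections. For Mertk they were H2-Q5 (0.188) and Dmxl2 (0.218), for Gas6 Btn1a1 (0.105) and Jak1 (0.124), and for Gulp1 Farp2 (0.0918) and Ggcx (0.0969). All of these genes were picked for closeness to a member on these same arrays. The like order of the 4 group means, of Oas1a and Megf10 or of Ggcx and Gulp1, thus largely follows from the choice. Ggcx was highest in adult cells on wild-type sections (0.40) and lowest in neonatal cells on APdE9 sections (-0.31).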

How the data were processed

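RNA of 12 pooled astrocyte samples was measured on single-channel Affymetrix arrays. Per the submitters' processing notes the authors computed signals with RMA (its version is not given in the sources used here). For 8 arrays the deposited signals were read as log2, a base the labels do not state. The deposited columns of the other 4 arrays were recorded as a score, since 6 values there had lost their decimal point. These were set to missing, and none lay in a member's probe set. All 45095 probe sets without a missing value had a median of 0 across arrays, to within 1e-06. Of 45101 probe sets, 64 controls were left out. Of the rest, 34945 had a single gene, 932 several and 9160 none, and 34741 matched RefSeq by gene ID. Raw arrays were not used here.

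A model of 4 group means was fitted to all arrays in limma 3.58.1 (R 4.3.3), with prior degrees of freedom 3.97 and residual 8, and checked on simulated data. Array medians lay between -0.039 and 0.034. The main fit had no pairs, and the replicate number entered only an alternative, as a block over all arrays. Replicate numbers were judged to act as pairs where each pair's deviations correlated above 0.1. They did between the sections in neonatal cells (0.305, 0.147 and 0.519) and between the ages on APdE9 sections (0.460, 0.206 and 0.473). Replicate 2 fell short between the sections in adult cells (-0.147) and between the ages on wild-type sections (0.0247). The 10 genes, 9 pathway lists and 7 marker lists were chosen with earlier results of these data known. All members were named, with up to 4 called genes of each list by size and, for 4 members, the 2 genes of nearest pattern. The 23 alternatives covered normalization, array weights, the replicate block, the arrays fitted, variance estimates, probe set summaries, an SD filter, the threshold, repair of the damaged values and omission of each array in turn. Figures used matplotlib 3.10.9.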

Additional observations from a re-analysis of the deposited data

Results flagged for a closer look

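The response to the section differed between the ages for 2 of the 10 genes, by limma's test of the difference of the effects, adjusted over all genes. The same test called 5.19% of all genes higher and 4.88% lower. For Axl the adult effect minus the neonatal one was -0.55 ± 0.12 (adjusted p = 0.0124), with -0.61 in adult cells and -0.057 in neonatal cells. Its probe set 1423586_at gave -0.92 ± 0.17 (adjusted p = 0.00814 over all probe sets). Probe set 1438621_x_at gave -0.18 ± 0.14 and was not called (adjusted p = 0.537). For Megf10 it was 0.80 ± 0.18 (adjusted p = 0.0136), with 1.46 in adult cells and 0.66 in neonatal cells, so the effects had the same sign and differed in size. Under quantile normalization the Megf10 value was 0.39 (adjusted p = 0.141). Groups of 3 arrays were too small for a test of single outlying arrays.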

How the results depend on the processing

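Of the called differences, 4 of 5 by section in adult cells (Megf10, Axl, Mfge8 and Pros1), 6 of 9 by age on wild-type sections and 4 of 7 by age on APdE9 sections kept direction and call under every alternative run, and 0 of 3 by section in neonatal cells and 0 of 2 differences of effects did. Members called by section in neonatal cells numbered 3 at first, 6 with array weights and 1 with only the arrays compared. They numbered 0 at an adjusted p under 0.01 and 0 to 3 when single arrays were left out. Over all 18193 genes the same calls numbered 684 at first, 2160 with array weights and 272 with only the arrays compared. At 0.01 they numbered 248, and without single arrays 263 to 761. At 0.01 there were 0 differences of effects (2 before, and 1 after quantile normalization) and 4 genes by age on APdE9 sections (7 before). Over all genes there were 818 differences of effects at 0.01, 1831 before and 1407 after quantile normalization. By age on APdE9 sections 2850 of all genes were called at 0.01 and 4279 before. With the replicate block, Mertk joined the neonatal section calls (4 genes, adjusted p = 0.0303) and Tyro3 the differences of effects (3 genes, adjusted p = 0.0499). No other call of a member changed. Over all genes the block gave 1013 neonatal section calls and 2623 differences of effects. Array weights gave the second neonatal wild-type array 7.65 and the others 0.557 to 1.48. Signs turned only in uncalled differences, and the cause was not tested. By section in adult cells Dock1 was -0.000757 after quantile normalization, -0.0232 with array medians at 0, -0.0230 with array weights, and -0.0780 to 0.0818 without single arrays. By section in neonatal cells Axl was 0.0209 and Elmo1 0.0162 with array weights. With the probe set of largest SD in place of the mean, Elmo1 was 0.0321 and Dock1 -0.105 there, and the differences of effects were -0.0151 for Elmo1 and 0.287 for Dock1. Without single arrays, the neonatal section difference ran from -0.0945 to 0.0492 for Elmo1 and from -0.00310 to 0.0922 for Dock1, and the difference of effects for Dock1 from -0.134 to 0.0258. Signal over background could not be computed, so how far dim signal limits single probe sets is not known.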
